A study of Danio rerio with 5 samples.

Results

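The genes described here are those whose messenger RNA stood higher in every miR-430-injected library than in both uninjected libraries. They were chosen from read counts, expressed per 1000000 counts of the library (CPM), by a fixed size of difference. A gene was taken when its mean CPM over the 5 libraries was at least 3 and its CPM in each of the 3 injected libraries was at least 1.4 times the CPM of both controls. Of 26158 genes in the tables, 11381 reached the mean CPM, and 57 of these met the rule, which is 0.501% of the genes tested. The opposite pattern, all 3 injected libraries at least 1.4-fold below both controls, was found for 22 genes, or 0.193%. Because the values themselves chose the 57 genes, their position above the controls is a description and was not tested.

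Poly(A)+ RNA came from whole zebrafish embryos at 6 h after fertilization, when the embryonic shield forms, with 15 embryos pooled in each of 5 libraries. The wild type was of the mixed strain TU/AB/TL/TLF. The other 4 libraries came from MZdicer embryos, homozygous for the dicer allele hu896 and lacking both maternal and zygotic Dicer. Of these, 1 library was left uninjected and 3 were injected at the 1-cell stage with 1 nl of a 25 µM stock of a miR-430 duplex, of a miR-430 hairpin that depends on Argonaute 2 (Ago2), or of the same hairpin carrying 3 phosphorothioate bonds (3xPS hairpin). None of the 5 libraries analysed here came from embryos injected with another RNA or with buffer, so an effect of injection itself cannot be told apart from an effect of miR-430. The strain background of the MZdicer fish is not given in the labels, so strain and genotype cannot be told apart between wild type and the others.

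MicroRNAs guide Argonaute proteins to messenger RNAs, mostly through their seed bases, and lower the stability and translation of these targets. Dicer cuts most microRNA precursors, and embryos without it make no mature miR-430, the family that clears many maternal transcripts in early zebrafish development. An injected duplex can be loaded without Dicer, and the Ago2 hairpin is cut by Ago2 and then trimmed at its 3′ end. Phosphorothioate bonds slow the nucleases that trim such ends.

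The summed gene counts ranged from 14867084 for MZdicer to 26300080 for wild type, with 24123349 to 25317886 after injection. DICER1 (ENSDARG00000001129), the mutated gene, had 35.2 CPM for wild type and 20.5 to 23.2 CPM for the 4 MZdicer libraries, a level that does not show the allele. Genes of the outer enveloping layer were well represented, with 19 of 21 matched genes at a mean of at least 3 CPM. Only 1 of 26 matched muscle genes and 2 of 14 blood and vessel genes reached that level. In whole embryos, fewer cells of a type and less RNA per cell cannot be told apart. Each group has 1 library, so the spread between embryo pools is unknown and no test was made. Intervals in square brackets after a ratio for a single gene are 95% exact conditional binomial intervals of 2 counts and cover counting error only. Those after a median are order-statistic intervals over genes.

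Of the 49 members with a gene symbol, 9 encode transcription or chromatin regulators, 12 intracellular signalling proteins, 4 receptors or guidance molecules, 3 channels or transporters, 9 cytoskeletal, membrane or matrix proteins and 8 metabolic enzymes or related proteins, with 4 others. These groups were assigned by hand after the values were seen. The summed CPM of the 57 genes was 569 for wild type, 676 for MZdicer, 1301 for duplex, 1143 for hairpin and 1141 for 3xPS hairpin. Against MZdicer the median ratio was 1.91 for duplex, 1.62 for hairpin and 1.66 for 3xPS hairpin. Against wild type it was 2.62, 2.396 and 2.37, and the rule had set a floor of 1.4 for each value. At least 2-fold above wild type were 42 members for duplex, 35 for hairpin and 36 for 3xPS hairpin, where 10.4%, 15.9% and 16.8% of all genes tested were. At least 2-fold above MZdicer were 20, 11 and 6 members, where 1.51%, 0.589% and 0.448% were. The rule used these contrasts, so nothing is read from the counts. Taken singly, the duplex library was 1.4-fold above both controls in 306 genes (2.69%), the hairpin in 246 (2.16%) and the 3xPS hairpin in 216 (1.9%).

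**Figure D1:**
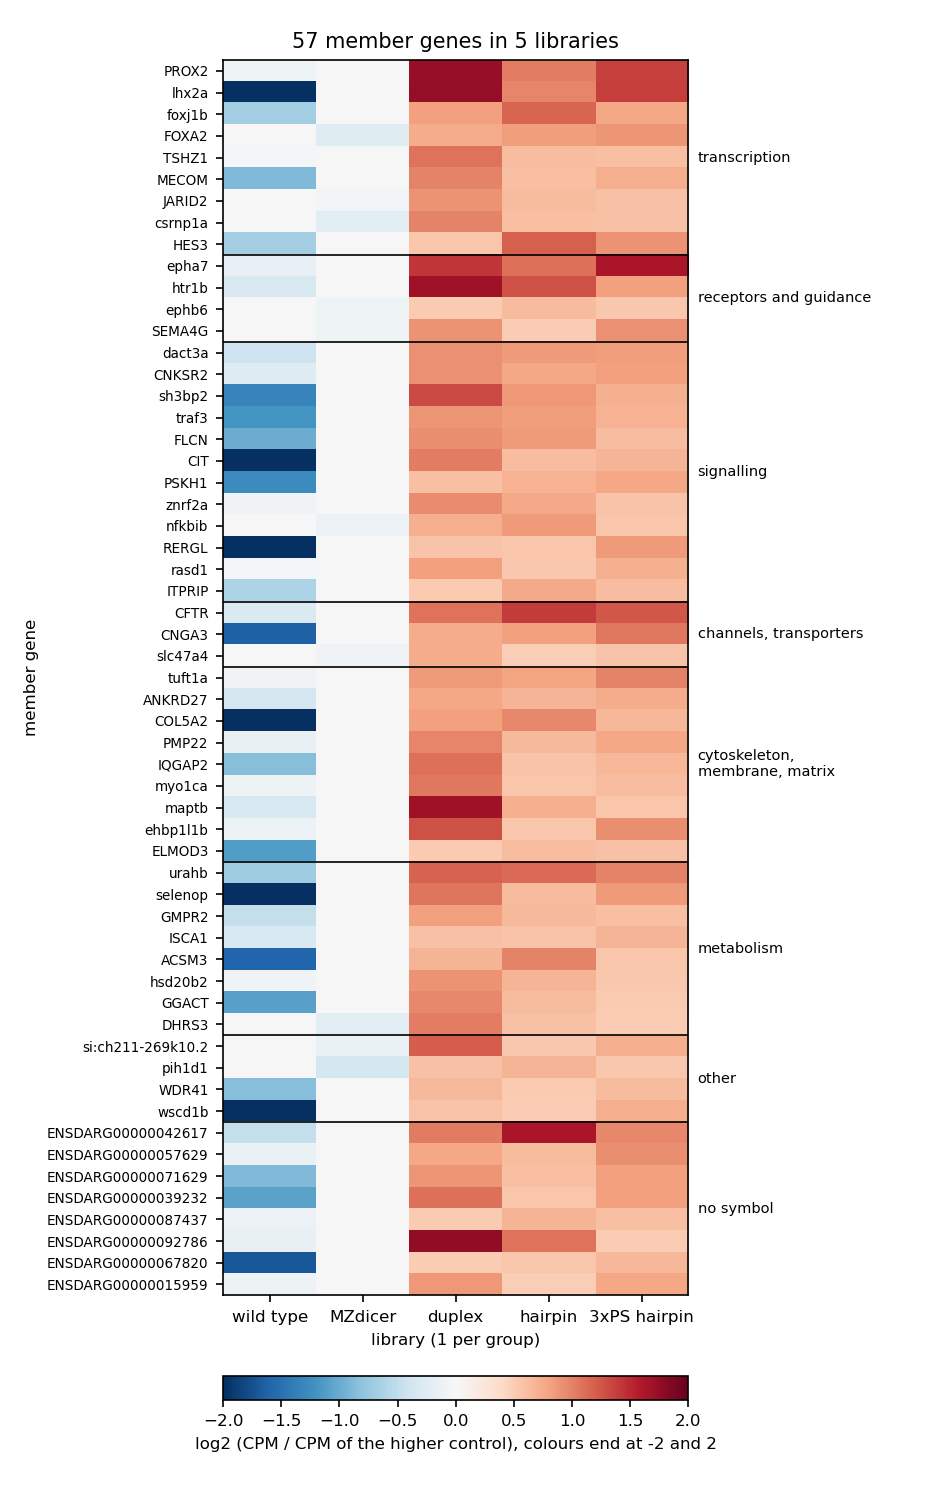
Each row is a member gene, grouped by role, and each column a library; colour gives the log2 ratio of CPM to the higher of the 2 uninjected libraries. The 3 injected columns are red in every row because the rule requires it, while the wild type column ranges from white to dark blue.

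The smallest of the 6 ratios of a gene (3 injected libraries against 2 controls) was used to rank the members. It had a median of 1.499 and ran from 1.4004 to 2.16, and only epha7, CFTR and PROX2 met the rule with a 2-fold threshold. These 3 genes had 24, 31 and 43 counts in MZdicer. Both controls were under 3 CPM for each, so the 3 genes reached the minimum mean only through their injected values. With 0.5 CPM added to every value, the log2 of their smallest ratios was 0.913, 0.93 and 0.913, each below 2-fold. In 29 genes the smallest ratio lay between 1.4 and 1.5. The rule had required all 6 ratios to be at least 1.4, so intervals above 1 are largely fixed by it. Of the 57 genes, 55 had all 6 intervals above 1. The exceptions, ENSDARG00000087437 and ENSDARG00000092786, each had 5 of 6, since their smallest ratios were 1.44 [0.963, 2.203] and 1.42 [0.970, 2.11]. The 3 ratios against MZdicer share its single library, which was also the smallest. The threshold was also sensitive to scaling: 49 of the 57 stayed at 1.4-fold or more with TMM factors, 45 with DESeq2 size factors and 39 with upper-quartile factors, where the lowest value was 1.18.

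Just inside the threshold lay ENSDARG00000015959 at 1.4004, slc47a4 at 1.41, and ENSDARG00000067820, wscd1b and ENSDARG00000092786 at 1.42. Just outside lay CKMT1B, ptprdb and cntn1a at 1.39, RAB4A at 1.39 and PALM at 1.38. PALM, for example, was at 106 CPM for wild type, 113 for MZdicer and 156 to 180 CPM in the injected libraries.

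Among the transcription regulators, the homeobox gene lhx2a (ENSDARG00000037964), a LIM-homeodomain factor, had the lowest wild type level. It was at 0.266 CPM for wild type (7 counts), 2.09 for MZdicer, 7.07 for duplex, 4.104 for hairpin and 5.44 for 3xPS hairpin. The injected libraries thus stood above an MZdicer level that was itself above wild type. PROX2 (ENSDARG00000041952), a Prospero-type homeobox gene, instead had like levels in the controls, at 2.74 CPM for wild type and 2.89 for MZdicer. It reached 9.72 for duplex, 5.89 for hairpin and 7.47 for 3xPS hairpin, and its smallest ratio was 2.04 [1.44, 2.93].

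The forkhead gene FOXA2 (ENSDARG00000003411), a regulator of the axial mesoderm, floor plate and endoderm, was the member of the dorsal organizer list. It was at 22.5 CPM for wild type, 18.9 for MZdicer, 37.6 for duplex, 40.1 for hairpin and 41.4 for 3xPS hairpin. The 3 injected values lay close together, and the smallest ratio was 1.68 [1.51, 1.86]. A second forkhead gene, foxj1b (ENSDARG00000088290), belongs to the family that drives motile cilium genes. It was at 1.75 CPM for wild type, 2.83 for MZdicer, 4.98 for duplex, 6.34 for hairpin and 4.83 for 3xPS hairpin.

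MECOM (ENSDARG00000060808), a zinc finger factor, was at 17.0 CPM for wild type, 31.2 for MZdicer, 61.9 for duplex, 47.2 for hairpin and 51.5 for 3xPS hairpin. HES3 (ENSDARG00000076857), of the Hairy/Enhancer-of-split repressor family, had the same order of controls, at 9.85 CPM for wild type, 15.9 for MZdicer, 23.2 for duplex, 36.3 for hairpin and 29.6 for 3xPS hairpin. TSHZ1 (ENSDARG00000005026), a teashirt zinc finger gene, had like controls, at 19.8 and 20.04 CPM, and was at 42.7 for duplex, 30.8 for hairpin and 30.5 for 3xPS hairpin. JARID2 (ENSDARG00000060925), which encodes a partner of Polycomb repressive complex PRC2, and csrnp1a (ENSDARG00000031426) were lower genes with controls between 3.56 and 4.56 CPM and injected values between 6.21 and 8.49 CPM.

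The receptor genes were led by the Eph receptor epha7 (ENSDARG00000004635), which mediates contact repulsion between cells. It was at 1.44 CPM for wild type, 1.61 for MZdicer, 4.34 for duplex, 3.48 for hairpin and 4.995 for 3xPS hairpin. Its smallest ratio, 2.16 [1.36, 3.55], was the highest of the set, but it rests on 24 counts in MZdicer. The serotonin receptor gene htr1b (ENSDARG00000053987) was at 2.43 CPM for wild type and 3.03 for MZdicer, against 9.80 for duplex, 7.34 for hairpin and 5.36 for 3xPS hairpin. The injected forms were ordered differently for these 2 genes, with the 3xPS hairpin highest for epha7 and lowest for htr1b. A further Eph receptor gene, ephb6, was at 12.7 to 13.5 CPM in the controls and 19.3 to 20.9 CPM in the injected libraries. The semaphorin gene SEMA4G was at 10.8 to 11.4 CPM and 16.3 to 21.5 CPM.

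**Figure D2:**
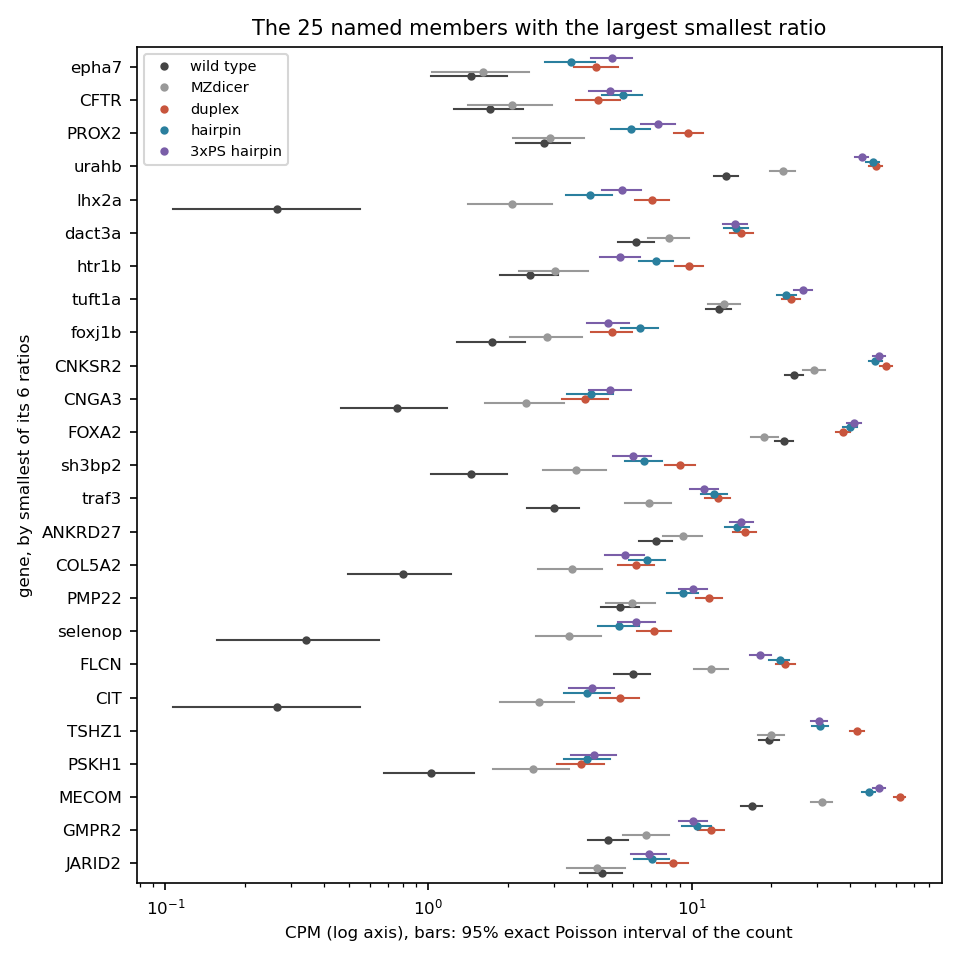
CPM on a log axis in each of the 5 libraries for the 25 members with a symbol that rank highest by the smallest of their 6 ratios; points are single libraries and bars are 95% exact Poisson intervals of the count. The intervals are widest for genes with few counts in wild type, such as lhx2a at 0.266 CPM and selenop at 0.342 CPM.

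Among the signalling genes, dact3a (ENSDARG00000087910), of the Dact family of Wnt and TGF-beta modulators, was at 6.16 CPM for wild type, 8.21 for MZdicer and 14.6 to 15.4 CPM in the injected libraries. The Ras-pathway scaffold gene CNKSR2 (ENSDARG00000073707) was at 24.5 and 29.2 CPM in the controls and 49.9 to 55.0 CPM after injection. For both genes the injected libraries differed from each other far less than from the controls. The adaptor genes traf3 (ENSDARG00000022000), which acts in TNF receptor and antiviral signalling, and sh3bp2 (ENSDARG00000021982) were already higher in MZdicer than in wild type. sh3bp2 was at 1.44 CPM for wild type, 3.63 for MZdicer, 9.04 for duplex, 6.59 for hairpin and 5.97 for 3xPS hairpin. traf3 was at 3.00 CPM for wild type, 6.86 for MZdicer, 12.6 for duplex, 12.2 for hairpin and 11.2 for 3xPS hairpin.

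FLCN (ENSDARG00000062385), the folliculin gene of the lysosomal nutrient-sensing pathway, was at 5.97 CPM for wild type, 11.9 for MZdicer, 22.7 for duplex, 21.6 for hairpin and 18.3 for 3xPS hairpin. The ubiquitin ligase gene znrf2a (ENSDARG00000077855) had the highest level per length of the set, with a mean of 82.5 RPKM, the authors' length-scaled unit. It was at 71.3 CPM for wild type, 74.7 for MZdicer, 143 for duplex, 126 for hairpin and 111 for 3xPS hairpin, with at least 1110 counts in every library. Of the remaining signalling genes, nfkbib, an inhibitor of NF-kappa-B, and rasd1, a Ras-like GTPase gene, had like controls, while the kinase genes CIT and PSKH1, the Ras-like gene RERGL and ITPRIP were higher in MZdicer than in wild type. All 6 had smallest ratios between 1.44 and 1.53.

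The channel genes had low levels. CFTR (ENSDARG00000041107), the chloride channel of epithelia that acts in Kupffer's vesicle in zebrafish, was at 1.71 CPM for wild type, 2.09 for MZdicer, 4.42 for duplex, 5.47 for hairpin and 4.91 for 3xPS hairpin. CNGA3 (ENSDARG00000012297), a subunit of cyclic nucleotide-gated channels, was at 0.760 CPM for wild type, 2.35 for MZdicer and 3.95 to 4.91 CPM after injection. The transporter gene slc47a4 (ENSDARG00000079340), of a family that exports organic cations, was at 60.5 CPM for wild type, 57.4 for MZdicer, 101 for duplex, 85.1 for hairpin and 90.04 for 3xPS hairpin. Its ratio of 1.41 [1.32, 1.504] was small but rested on many counts, in contrast to CFTR at 2.12 [1.41, 3.27]. With TMM, DESeq2 and upper-quartile factors slc47a4 fell below 1.4-fold, at log2 values of 0.414, 0.361 and 0.242. CFTR stayed above 2-fold with these factors, at 1.093, 1.1 and 1.185.

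In the group of cytoskeletal, membrane and matrix genes, the microtubule-associated tau gene maptb (ENSDARG00000087616) was at 3.00 CPM for wild type, 3.77 for MZdicer, 12.2 for duplex, 6.22 for hairpin and 5.52 for 3xPS hairpin. ehbp1l1b (ENSDARG00000079895) was at 20.4 and 22.1 CPM in the controls, 53.4 for duplex, 32.3 for hairpin and 42.2 for 3xPS hairpin. The duplex library was the highest for both. The fibrillar collagen gene COL5A2 (ENSDARG00000031678) was lowest in wild type at 0.798 CPM, followed by 3.498 CPM for MZdicer and 5.56 to 6.80 CPM after injection. tuft1a (ENSDARG00000061242) and PMP22 (ENSDARG00000060457), a tetraspan membrane protein gene, had like controls and smallest ratios of 1.72 [1.46, 2.04] and 1.56 [1.22, 2.02]. The scaffold gene IQGAP2 (ENSDARG00000060010) was at 5.48 CPM for wild type, 9.89 for MZdicer, 21.3 for duplex, 14.8 for hairpin and 15.7 for 3xPS hairpin. With IQGAP2, the remaining members were ANKRD27, myo1ca and ELMOD3, with smallest ratios of 1.43 to 1.60.

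Among the metabolic genes, urahb (ENSDARG00000089331), which encodes a hydrolase of the urate breakdown pathway, was at 13.6 CPM for wild type, 22.2 for MZdicer, 50.04 for duplex, 48.7 for hairpin and 44.3 for 3xPS hairpin. Its smallest ratio was 1.996 [1.76, 2.26], just under the 2-fold threshold. hsd20b2 (ENSDARG00000031336), a hydroxysteroid dehydrogenase gene of cortisol breakdown, was at 51.3 and 53.7 CPM in the controls and 77.8 to 100.3 CPM after injection. DHRS3 (ENSDARG00000044803), whose product reduces retinal to retinol and so limits retinoic acid, was at 27.3 CPM for wild type, 23.3 for MZdicer, 55.3 for duplex, 41.1 for hairpin and 38.7 for 3xPS hairpin. Selenoprotein P, a plasma selenium carrier encoded by selenop (ENSDARG00000093549), had the largest step between the controls. Its gene was at 0.342 CPM for wild type (9 counts), 3.43 for MZdicer, 7.23 for duplex, 5.31 for hairpin and 6.17 for 3xPS hairpin. ACSM3 (ENSDARG00000004880), of the medium-chain acyl-CoA synthetase family, was at 3.38 CPM for wild type, 10.2 for MZdicer, 16.3 for duplex, 20.2 for hairpin and 15.0 for 3xPS hairpin. With ACSM3, the genes GMPR2, GGACT and ISCA1 completed the group, with smallest ratios of 1.44 to 1.51.

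The 4 other members with a symbol were pih1d1, WDR41, wscd1b and si:ch211-269k10.2, with smallest ratios of 1.42 to 1.46. pih1d1 encodes a subunit of the R2TP chaperone complex and was the member with the lowest ratio of MZdicer to wild type. It was at 3.08 CPM for wild type, 2.42 for MZdicer, 4.62 for duplex, 4.93 for hairpin and 4.47 for 3xPS hairpin.

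Of the 8 members without a symbol, ENSDARG00000057629 had the highest level per length, with a mean of 17.96 RPKM. It was at 44.5 CPM for wild type, 48.8 for MZdicer, 83.0 for duplex, 75.9 for hairpin and 92.4 for 3xPS hairpin. ENSDARG00000042617 was highest with the hairpin, at 21.3 CPM against 14.1 for duplex, 13.4 for 3xPS hairpin, 6.86 for MZdicer and 4.90 CPM for wild type. The files and tables used here pair no name with these identifiers.

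The rule set no condition on the 2 controls relative to each other, and the members were split into 2 classes by a 1.4-fold cut-off. In 33 genes the controls were within 1.4-fold of each other (57.9%, against 49% of the genes tested). The controls of this class were not all equal. The interval of the MZdicer to wild type ratio lay above 1 for GMPR2, for example, at 1.39 [1.06, 1.82], and below 1 for FOXA2. In 24 genes MZdicer was at least 1.4-fold above wild type (42.1%, against 32.4% of the genes tested) and the injected libraries were higher still. No member was at least 1.4-fold lower in MZdicer than in wild type, a difference seen in 18.6% of the genes tested. The rule largely sets this, since injected values would have to be 1.4-fold above a wild type level already 1.4-fold above MZdicer. MZdicer was the higher control in 47 of 57 genes (82.5%, against 53.1%). The injected embryos have the MZdicer genotype, so genes high in MZdicer clear the wild type threshold more easily, and this share is partly set by the rule.

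The 5 largest steps between the controls were those of selenop, at 10.02-fold [4.89, 23.2], CIT at 9.86-fold [4.36, 26.1], lhx2a at 7.83-fold [3.38, 21.1], RERGL at 6.70-fold [3.999, 11.8] and wscd1b at 5.31-fold [3.19, 9.16]. These intervals are wide because the wild type counts were between 7 and 21. In wild type 7 members were under 1 CPM, and in MZdicer 0 were. The rule and its minimum mean CPM partly set these counts, and nothing is read from them. At the other end, MZdicer was the lower control for pih1d1, with a ratio of 0.786 [0.516, 1.18], for FOXA2 at 0.841 [0.727, 0.971], for DHRS3 at 0.855 [0.750, 0.973], for csrnp1a at 0.860 [0.607, 1.21] and for si:ch211-269k10.2 at 0.916 [0.564, 1.46]. Only FOXA2 and DHRS3 of these 5 had intervals below 1. Over the 57 genes the median log2 ratio of MZdicer to wild type was 0.33 [0.13, 0.71], an interval over genes, against 0.05 for all genes tested. With upper-quartile factors it was 0.07, since that scaling shifts every gene by -0.26 on the log2 scale between these libraries.

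**Figure D3:**
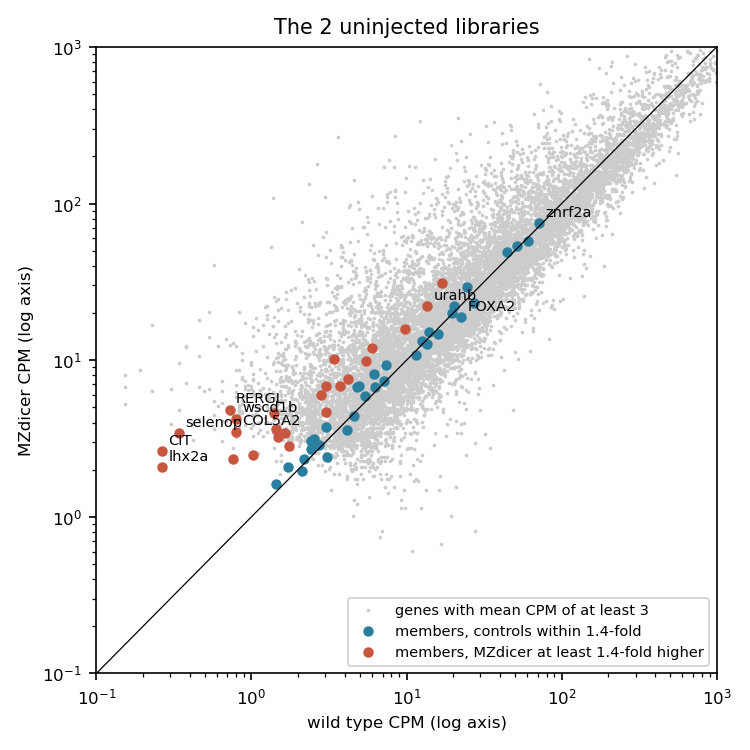
CPM for wild type against CPM in MZdicer, both on log axes, for the genes tested (grey, shown between 0.1 and 1000 CPM) and the 57 members, with the line of equality. The 33 blue members lie near the line and the 24 red members above it, and no member lies far below it.

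The place of these genes among all genes raised above MZdicer was as follows. All 3 injected libraries were at least 1.4-fold above MZdicer in 187 genes (1.64% of the genes tested). In 111 of these, MZdicer was at least 1.4-fold below wild type, as it was in 18.6% of all genes tested. None of the 111 was a member, which the rule largely sets. The 57 members made up the part of the 187 that was also 1.4-fold above wild type. From the other side, all 3 injected libraries were at least 1.4-fold above wild type in 2443 genes (21.5%). In 2308 of these MZdicer itself was already that far above wild type, as it was in 32.4% of all genes tested. The comparisons share their control libraries, which partly sets these counts.

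The 3 injected forms were given at the same dose and time, and the rule names no order among them. The rule used the same 3 libraries, however, and admits no gene that any of them holds below MZdicer. Among all genes tested, 15.7% were at least 1.4-fold below MZdicer for duplex, 8.64% for hairpin and 5.71% for 3xPS hairpin. The members' shares and medians between forms are therefore partly set by the rule, here and in the comparisons that follow. The highest injected library was a median of 1.24 times the lowest, with a range from 1.06 to 2.41, and 42 of 57 genes were within 1.4-fold in all 3 libraries (73.7%), which is near the background (72.8% of the genes tested). The duplex library was the highest of the 3 in 34 genes (59.6%, against 33.4% of the genes tested), the hairpin in 12 (21.1%, against 36.3%) and the 3xPS hairpin in 11 (19.3%, against 30.3%). The median log2 ratio of the hairpin to the duplex was -0.18 [-0.33, -0.06] over the members and 0.04 over all genes tested. That of the 3xPS hairpin to the duplex was -0.15 [-0.26, -0.05] over the members and -0.00035 over all genes. Between the 2 hairpins, which differ by the phosphorothioate bonds, the median was 0.05 [-0.09, 0.11]. These 3 intervals are over genes, so they do not measure how far 1 form differs from another. These 3 pairwise comparisons have no replicates and were not tested.

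The hairpin was at least 1.4-fold below the duplex in 9 members (15.8%, against 6.21% of the genes tested) and at least 1.4-fold above it in 2 (3.51%, against 11.8%). The 9 were PROX2, lhx2a, maptb, ehbp1l1b, IQGAP2, myo1ca, si:ch211-269k10.2, ENSDARG00000039232 and ENSDARG00000092786, and the 2 were HES3 and ENSDARG00000042617. The 3xPS hairpin was at least 1.4-fold below the duplex in 5 members (8.77%, against 5.19%) and above it by that much in 0 (against 12.7%). The 5 were maptb, htr1b, sh3bp2, DHRS3 and ENSDARG00000092786. For maptb the duplex was 2.21-fold [1.8004, 2.72] above the 3xPS hairpin and 1.96-fold [1.61, 2.402] above the hairpin. ENSDARG00000092786 was at 9.20 for duplex, 5.72 for hairpin and 3.82 for 3xPS hairpin, against 2.43 and 2.69 CPM in the controls, so its 3xPS value was the closest to the controls.

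For htr1b the duplex was 1.83-fold [1.47, 2.27] above the 3xPS hairpin. HES3 showed the opposite order, with the hairpin 1.56-fold [1.41, 1.74] and the 3xPS hairpin 1.28-fold [1.14, 1.43] above the duplex. The other members with the largest ratios of 3xPS hairpin to duplex were CNGA3 at 1.24 [0.947, 1.64], RERGL at 1.21 [0.987, 1.48], epha7 at 1.15 [0.882, 1.501] and PSKH1 at 1.12 [0.845, 1.499], and these 4 intervals include 1. Only epha7 was at least 1.4-fold above the hairpin with the 3xPS hairpin (1.75% of members, against 5.36%), by 1.43-fold [1.08, 1.92]. ENSDARG00000042617 and ENSDARG00000092786 were at least 1.4-fold lower with it (3.51%, against 2.71%).

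**Figure D4:**
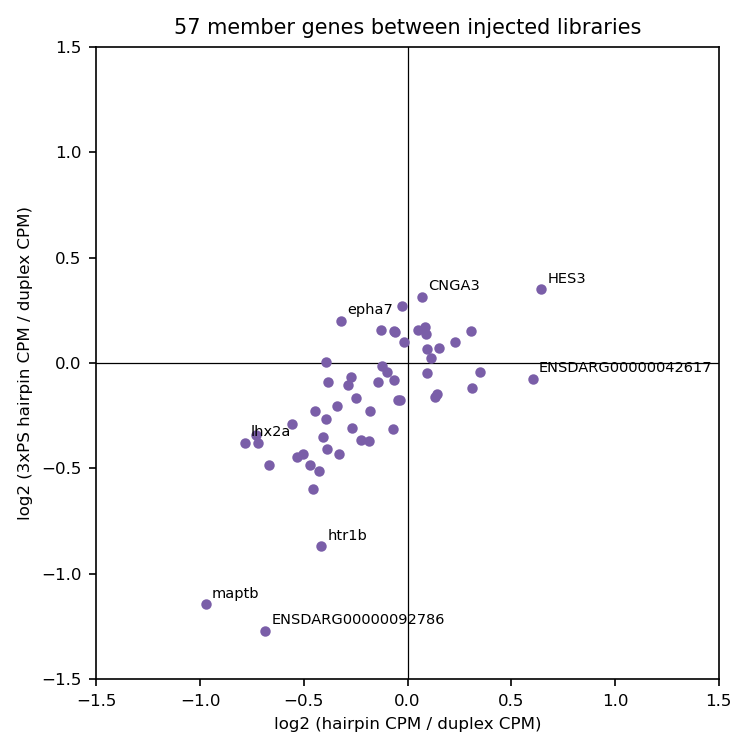
For each of the 57 members, the log2 ratio of hairpin to duplex CPM (horizontal) and of 3xPS hairpin to duplex CPM (vertical), each point 1 gene; both axes share the duplex library. More points lie below and left of 0 than in any other corner of the plot, maptb and ENSDARG00000092786 furthest, and HES3 lies up and right.

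Of 467 tested genes in 36 lists of pathway and cell type genes, 3 were members (0.642%, against 0.501% of the genes tested). They were FOXA2 in the dorsal organizer list, DHRS3 in the retinoic acid list and csrnp1a in the immediate early list, and 33 lists held none. That share is near the background, so the lists do not set the members apart. DHRS3 fell below the rule's fold threshold with TMM, DESeq2 and upper-quartile factors, at log2 values of 0.447, 0.393 and 0.253. csrnp1a stayed above it with TMM factors, at 0.525, but fell below it with DESeq2 and upper-quartile factors, at 0.472 and 0.332. FOXA2 stayed above it with TMM, DESeq2 and upper-quartile factors, at 0.694, 0.653 and 0.584.

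The dorsal organizer list shows how FOXA2 stood beside genes of the same territory. Of its 18 tested genes, 12 were at least 1.4-fold lower in MZdicer than in wild type and 1 that far higher, where 18.6% and 32.4% of all genes tested were. At least 1.4-fold above MZdicer were 11 for duplex, 13 for hairpin and 14 for 3xPS hairpin, where 8.68%, 5.78% and 4.24% of all genes tested were, and 1, 0 and 0 were that far below it. Against wild type, 6 were that far below with each form, where 12%, 15.5% and 18% were. That far above wild type were 2, 6 and 4, where 26.2%, 31.5% and 32.1% were. FOXA2 is itself in each of the counts above MZdicer and above wild type, where the rule placed it. FOXA2 and foxa3 were at least 1.4-fold above wild type in all 3 injected libraries, and of this pair only FOXA2 was also that far above MZdicer in all 3. The Spemann organizer gene chrd, a BMP antagonist, was at 404 CPM for wild type, 177 for MZdicer and 307 to 308 CPM in the injected libraries, which was below wild type. GSC, a homeobox repressor of the organizer, was at 36.6 CPM for wild type, 28.0 for MZdicer, 37.2 for duplex, 55.05 for hairpin and 50.5 for 3xPS hairpin. The forkhead gene foxa3 came closest to FOXA2, at 209 CPM for wild type, 260 for MZdicer, 315 for duplex, 364 for hairpin and 416 for 3xPS hairpin, with a smallest ratio of 1.21. The summed CPM of the list, FOXA2 included, was 1397 for wild type, 961 for MZdicer, 1290 for duplex, 1444 for hairpin and 1492 for 3xPS hairpin. The part of this list's shift in the FOXA2 values was not tested.

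**Figure D5:**
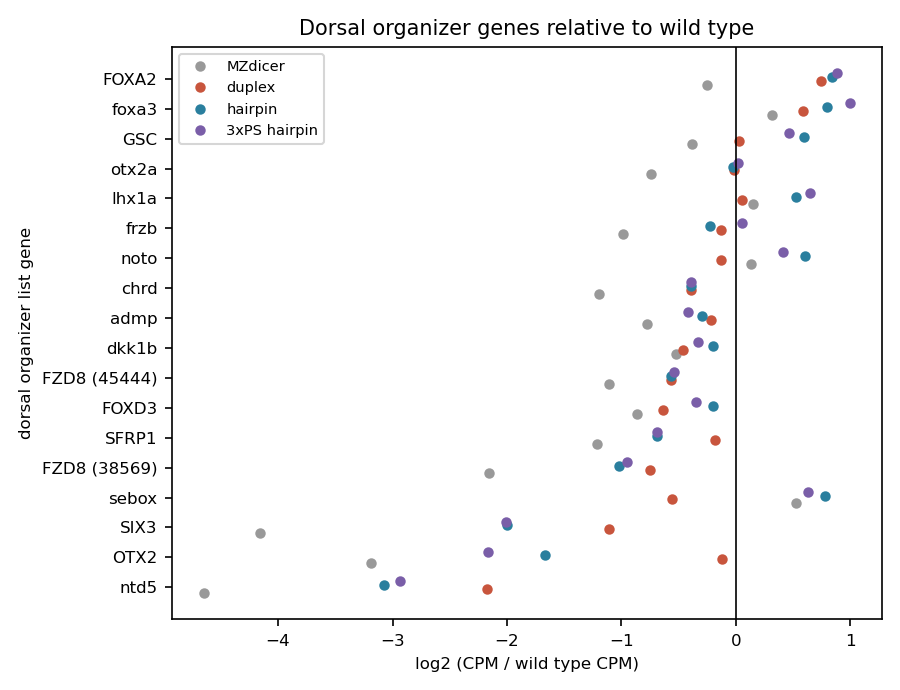
Log2 ratio of CPM to wild type CPM for the 18 tested genes of the dorsal organizer list in MZdicer and the 3 injected libraries; each point is 1 library and the line at 0 is the wild type level. For FOXA2, in the top row, all 3 injected libraries are well right of 0 while MZdicer is left of it.

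Of 10 tested retinoic acid genes, 4 were at least 1.4-fold above MZdicer for duplex, 3 for hairpin and 4 for 3xPS hairpin, and 1 was that far below it with each. Among all genes tested, 8.68%, 5.78% and 4.24% were that far above and 15.7%, 8.64% and 5.71% that far below. The member DHRS3, chosen by this same contrast, is in each of the list's counts above MZdicer. ALDH1A2, which makes retinoic acid, was at 126 CPM for wild type, 61.8 for MZdicer, 146 for duplex, 96.0 for hairpin and 95.6 for 3xPS hairpin, so only its duplex value passed wild type. Of 16 tested immediate early genes, 3, 2 and 1 were that far above MZdicer and 5, 0 and 0 below it, to be read against the same shares. Here csrnp1a is in each of the counts above MZdicer, where the rule placed it. The paralog CSRNP1 (ENSDARG00000038429) did not follow csrnp1a, at 39.4 CPM for wild type, 76.9 for MZdicer and 68.6 to 86.4 CPM after injection.

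Some members picked by hand after the values were seen, lhx2a, htr1b, maptb, epha7 and CNKSR2, are known from the nervous system. The share of such genes among all genes tested was not counted, so no theme is read from them. The neural list, which holds none of them, is given beside them. Of its 29 tested genes none was a member, and 16, 12 and 10 were at least 1.4-fold above MZdicer with the duplex, hairpin and 3xPS hairpin, where 8.68%, 5.78% and 4.24% of all genes tested were. At least 1.4-fold below MZdicer were 3, 0 and 0 of the 29, where 15.7%, 8.64% and 5.71% were. At least 1.4-fold below wild type were 3, 13 and 13, where 12%, 15.5% and 18% were, and that far above it were 6, 7 and 9, where 26.2%, 31.5% and 32.1% were. Its summed CPM was 3385 for wild type, 2356 for MZdicer, 2911 for duplex, 2537 for hairpin and 2354 for 3xPS hairpin, so no injected library reached the wild type sum. The closest to the rule was onecutl, a cut homeobox gene, at 19.9 CPM for wild type, 27.2 for MZdicer, 36.3 for duplex, 43.2 for hairpin and 44.2 for 3xPS hairpin. The part of neural cells in the members' values was not tested.

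Other features of the members were compared as descriptions, of which the level is bounded by the rule's minimum of 3 CPM. The median gene length was 2459 bases for the members and 2299 bases for the genes tested. The members had a median level of 8.82 CPM against 22.6 CPM, and 33 of 57 had a mean under 10 CPM (57.9%, against 29.3%). In 22 members the lowest library count was under 50 (38.6%, against 7.12%), so counting error weighs more on them than on most genes. The rule makes a control the lowest library of every member, and the minimum mean CPM averages in the injected libraries. That share is therefore partly set by the rule. Of the members, 8 had no symbol (14.0%, against 18.8%). In 3 genes, dact3a, foxj1b and ENSDARG00000092786, the authors' largest count column exceeded the one used here by over 5% (5.26%, against 9.12%). Of 42 members placed in a reference gene order (GRCz12tu), 1 pair lay within 10 genes of each other, urahb and ANKRD27, at a distance of 8 genes.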

How the data were processed

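RNA from 5 libraries, 1 per group, was sequenced from strand-specific poly(A)+ preparations, per the labels' protocols. Tools named per the submitters' processing notes are TopHat2 2.0.8 and CASAVA 1.8.2, and the build named is Zv9 (danRer7). The counting tool, annotation, use of strand and handling of reads with several placements were not given in the sources used here. The main values are the whole-number counts per gene that the authors deposited without normalization. Further columns that the authors deposited hold fractional values in some genes and were treated here like estimated counts, rounded to whole numbers, as alternatives. What they hold is not stated in the labels or headers. The deposited RPKM values are scaled by the length column and the sum of counts, as recomputed from the deposited columns. The deposited gene lengths (other unit, bases) were used as given.

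CPM was a gene's count over the sum of counts. Genes tested had a mean of at least 3 CPM. Ratios of CPM carry 95% exact conditional binomial intervals, and medians carry order-statistic intervals over genes. Without molecular identifiers, reads are no independent molecules, and the intervals of single-gene ratios cover only counting error. TMM factors came from edgeR 4.0.16 and size factors from DESeq2 1.42.0 in R 4.3.3, as alternatives only. The rule was checked on counts simulated with Poisson counting error only and changes of 2-fold or more. That check does not cover changes near the 1.4-fold threshold or the spread between embryo pools. Python 3.11.15, pandas 2.3.3, numpy 2.4.6 and scipy 1.17.1 were used.

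The members and gene lists were chosen with earlier results of these data known. Named genes are the 25 members with a symbol ranking highest by smallest ratio, the 10 with the highest mean CPM, list members, the 5 nearest the threshold on each side, and the 5 at each extreme of the 3xPS hairpin to duplex and MZdicer to wild type ratios. Other members were named after their values were seen. Symbols came from a table covering 18804 of 26158 identifiers, and 8 member symbols (CNKSR2, CNGA3, CIT, JARID2, ITPRIP, GGACT, SEMA4G and DHRS3) belong to more than 1 identifier. Only 1 identifier of each of these symbols met the rule, and the values given are those of that identifier. A listed symbol was also matched to an upper-case symbol lacking its final paralog letter, a choice made after the data were seen. Overlapping and near-identical genes are uncertain. Promoter motifs were to be compared, but sequences were not used here.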

Additional observations from a re-analysis of the deposited data

How the results depend on the processing

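No paired analysis was possible because each group has 1 library. The number of genes that met the rule was 57 and stayed within 1.5 times of that with TMM factors (49, of which 49 shared), DESeq2 size factors (45, of which 45 shared), upper-quartile factors (48, of which 39 shared), the other count columns (58 each, 56 shared), RPKM (57), a pseudocount of 0.5 CPM (48) and a demand that all 6 intervals lie above 1 (55). It was 107 at a mean CPM of at least 1, 24 at a mean CPM of at least 10, 90 with no filter and a pseudocount of 0.5 CPM, 3 at a 2-fold threshold and 214 at a 1.2-fold threshold. With a library left out of the rule it was 102 without the duplex, 106 without the hairpin, 99 without the 3xPS hairpin, 187 without wild type and 2443 without MZdicer, so the MZdicer library bounds the set most. The median log2 ratio of MZdicer to wild type was 0.0676 with upper-quartile factors against 0.33. The medians between injected libraries stayed within their intervals over genes under all 7 alternatives of scaling, column, unit or pseudocount. Since the rule required all 6 ratios to be at least 1.4, intervals and ratios above 1 are largely fixed by it. For the 41 members named by rule, the smallest ratio stayed inside its counting interval in 280 of 287 alternative values and above 1 in all of them. The other 7 were slc47a4 with DESeq2 factors and FOXA2, TSHZ1, znrf2a, hsd20b2, DHRS3 and slc47a4 with upper-quartile factors. Depth limits the low genes most, and with 1 library per group no alternative measures the spread between embryo pools.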
